A study of Homo sapiens with 8 samples.

Results

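The genes described here build the vesicle coats, tethers and fusion machinery that carry proteins between the endoplasmic reticulum (ER) and the Golgi. They were taken by symbol from 1 table of m6A peaks, as the SEC, SAR1, COPI, TRAPPC, COG, golgin, GORASP, TMED, ARF, ARFGEF, ARFGAP, syntaxin and VAMP families. Of 171 rows whose symbol matched, 7 were left out as antisense or pseudogene rows. The remaining 164 peaks lie on 84 genes, of 22626 peaks on 12009 genes in all. The name patterns also take genes that act elsewhere, namely the protein translocon (SEC61, SEC62, SEC63), signal peptidase (SEC11A), SNAREs of the cell surface and endosomes, and SEC14-like lipid-binding proteins. These are described as groups of their own.

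The cells were HCT116, derived from a human colorectal carcinoma, with stable knockdown of ALKBH5 by a short hairpin (titled sh_AL1, here shALKBH5) or with a control hairpin (titled sh_NC and otherwise labelled WT, here shNC). ALKBH5 encodes an enzyme that erases N6-methyladenosine (m6A), a mark on adenosines of RNA. Each arm had 2 m6A immunoprecipitation (IP) and 2 input libraries of poly(A) RNA, 8 libraries in all. The deposited folds, p and false discovery rates (FDR) below were computed by the authors, for the peaks of the series as a whole. Folds and FDRs given as recentred, and FDRs with p doubled, were derived here from those deposited values. Values per library were not analysed here. No value therefore has a replicate error, and the depth is unknown. The titles name 1 hairpin per arm, and the labels do not say whether replicates were separate cultures. The sources used here state neither the numerator of the log2 fold nor a correction for transcript level. Folds are therefore given by sign, positive or negative, and no sign is read as more or less m6A in either arm. A peak is called where the authors' FDR of the difference is under 0.05.

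Secretory proteins enter the ER through the translocon and leave it in COPII vesicles, whose coat is assembled by the GTPase SAR1, the inner SEC23-SEC24 layer and the outer SEC13-SEC31 cage. COPI coats, recruited by ARF GTPases, return proteins from the Golgi to the ER and move them within the Golgi, and TMED (p24) proteins are cargo receptors that cycle between the compartments. TRAPP and COG complexes and the golgins tether incoming vesicles, and SNARE proteins then fuse them with the target membrane. In human transcripts m6A lies mostly in long internal exons and near the stop codon, within a short consensus whose core is GAC in its commonest form, and antibodies against m6A also bind m6Am, a related mark on the first transcribed base next to the cap.

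The sequence of most peaks was not used here, but 11 member start sites lie inside a peak, and their first 30 transcribed bases are covered by it in full. TMED7 is shown because its start-site peak is called, TRAPPC6B, SEC22B and COPB1 because they hold the core GAC, and TRAPPC4 and COPE because their start-site peaks are the most significant of the set. The bases are from RefSeq on GRCh38.p14, 5′ to 3′ on the transcribed strand, with each GAC in capitals.
TMED7, chr5:115626007-115626036, minus strand: aatccccacttccGACcctctcaggccttt
TRAPPC6B, chr14:39170304-39170333, minus strand: aGACtttagttcggccctaggatttggtag
SEC22B, chr1:120176491-120176520, minus strand: acctcagcgggaagcggaGACgcaagcagc
COPB1, chr11:14499782-14499811, minus strand: atagccggagtaGACggagccgcagtaGAC
TRAPPC4, chr11:119018766-119018795, plus strand: gaataccagtttccgagcggcaaggcagcg
COPE, chr19:18919358-18919387, minus strand: gtgtctttcaggaagaggagctggtgagaa
On the transcribed strand, 4 of the 11 windows hold GAC (36.4%), against 32.0% of 27305 start windows of all annotated genes in the table. On the opposite strand the share was 36.4% of the member windows and 31.3% of all windows. The first base was A in 7 of the 11 windows (63.6%), against 44.3% of all windows. None of the 11 holds GGAC, a longer motif that includes GAC, which 11.0% of all windows hold. A match is a description of these letters and does not locate a modified base. The TMED7 peak also reaches upstream of the annotated start, so in its transcripts the printed bases need not come first. Of the 84 genes, 73 had a promoter sequence to search.

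The median enrichment of peaks on the transport genes, read as IP over input, was 8.83-fold (quartiles 4.40 and 15.2), against 10.1-fold for all peaks (quartiles 4.96 and 16.3). The median log10 p of the peak was -14.5 on members, against -8.2 for all peaks. The exonic length had a median of 360 bases, against 300 bases, and 62 of the 164 peaks (37.8%) crossed an exon junction, against 30.4% of all peaks. Of the 84 genes, 38 (45.2%) had 1 peak, against 51.6% of all genes. Centres lay within 1000 bases of the annotated 3′ end of the gene for 34 of 163 peaks with a position (20.9%), against 22.2% of all peaks. Within 1000 bases of the 5′ end lay 19 (11.7%), against 9.6%.

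The most enriched member peak was on COG1, a subunit of the COG tether, at 56.4-fold in the authors' deposited table. It shares bases with a peak of FAM104A on the opposite strand, so the gene it belongs to is uncertain. TMED8 followed at 50.1-fold, COG8 at 44.0-fold and the giant golgin gene GOLGB1 (giantin) at 43.3-fold, all in the authors' deposited table. By significance the COG8 peak stood first, with a p that the table lists as 0, followed by COPB2, the β′ subunit of COPI, at a log10 p of -607 and 18.8-fold. The ARF6 peak, on the GTPase of the cell surface and endosomes, had a log10 p of -570 and 23.4-fold, and that of the TRAPP core subunit TRAPPC3 had -518 and 23.2-fold in the authors' deposited table. The COG8 peak overlaps peaks of PDF and of an unnamed gene on the same strand.

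**Figure D1:**
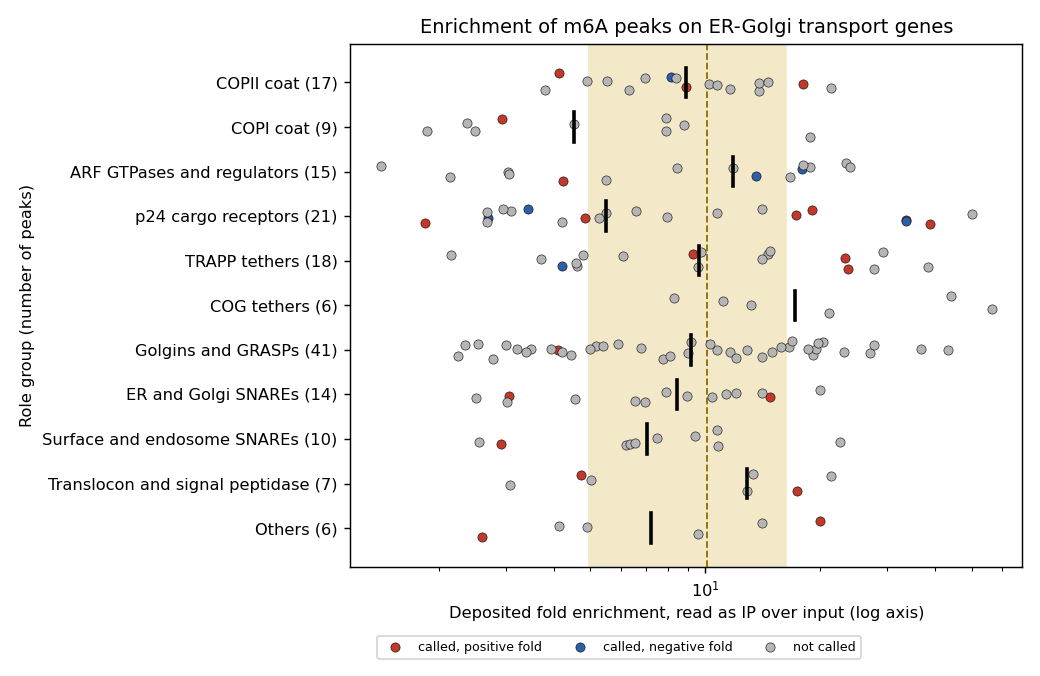
Deposited fold enrichment of each of the 164 member peaks (log axis) by role group, with the number of peaks in brackets. Black bars are group medians, the dashed line is the median of all 22626 peaks (10.1-fold) and the band spans their quartiles. COG peaks have the highest median (17.2-fold) and COPI peaks the lowest (4.54-fold).

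Called peaks were found on 23 of the 84 genes (27.4%), against 13.7% of all genes. The authors' FDR called 29 of the 164 peaks (17.7%), where 8.23% of all peaks were called. Of the called peaks, 22 on 21 genes had a positive fold (13.4% of member peaks, background 5.74%) and 7 on 5 genes a negative one (4.27%, background 2.49%). The median log2 fold of member peaks was 0.35 (quartiles -0.24 and 1.04), against 0.14 for all peaks (quartiles -0.52 and 0.79), and 107 of 164 folds were positive (65.2%, against 55.3%). With the 0.14 shift subtracted from every fold and calls made again, 15 member peaks were called positive and 12 negative, where 4.13% and 3.65% of all peaks were, and 7.78% in either direction. By that centring 55.6% of called member peaks were positive, against 75.9% as deposited. Whether the deposited p is one-sided is not stated, and with p doubled 27 member peaks were called, where 6.36% of all peaks were.

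The strength of a peak moves with these counts. Of 5 equal classes of all peaks by the p of the peak, the strongest held 53 of the 164 member peaks (32.3%). In that class 18 of 53 member peaks were called (34.0%), against 21.8% of all peaks in it. In the next class 3 of 37 were called (8.11%), against 10.9%, and in the middle class 5 of 28 (17.9%), against 5.1%. The class below held 2 calls among 30 member peaks (6.67%, against 2.28%), and the weakest 1 among 16 (6.25%, against 0.994%). If each class of member peaks had the called share of all peaks in it, 17.9 member peaks would be called (10.9%), against the 29 observed. These shares describe peaks within 1 table, with no test over the list, and the part of transcript abundance was not tested.

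**Figure D2:**
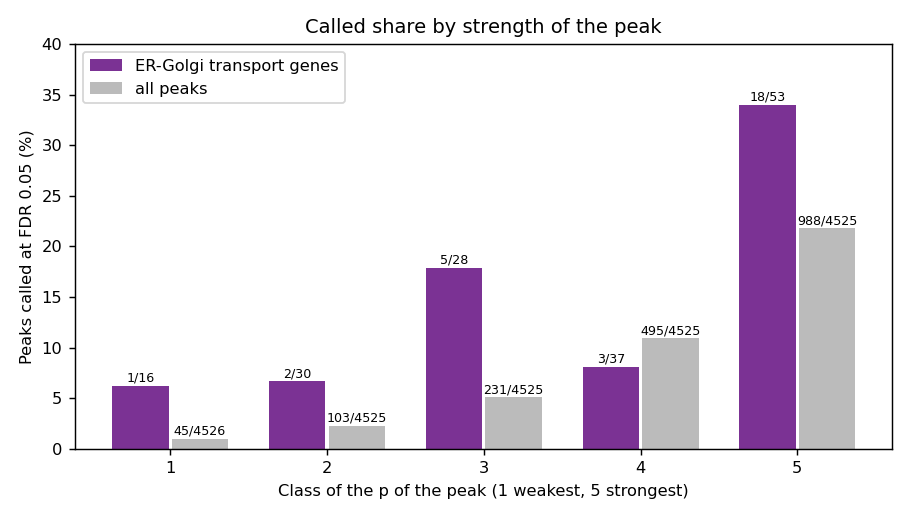
Percentage of peaks called at an FDR of 0.05 in 5 equal classes of the p of the peak, for ER-Golgi transport genes (purple, left) and all peaks (grey, right). Labels give called peaks over all peaks in the class. In the strongest class 18 of 53 member peaks are called (34.0%), against 21.8% of all peaks.

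COPII genes carried 17 peaks on 9 of the 14 genes named for this coat, and 4 of these peaks were called (23.5%, against 8.23% of all peaks). The outer cage held both signs. SEC31A, a cage subunit, had 1 peak, which the authors' deposited table puts at a log2 fold of 1.93 (FDR 4.2e-05), on chromosome 4 at 82818809 to 82821042 and centred 525 bases from the 3′ end. Its partner SEC13, also a subunit of the nuclear pore, had its only peak at -0.68 (FDR 0.00011, the authors' deposited table), on chromosome 3 at 10300964 to 10303648 and 287 bases from the 3′ end.

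Among the cargo-binding SEC24 paralogues, SEC24B and SEC24C each had 1 called peak of 2. SEC24B stood at 1.41 (FDR 0.00087) in the authors' deposited table, for a peak on chromosome 4 at 109449486 to 109463627 that lies far from the 3′ end, and its other peak at 1.24 was not called (FDR 0.64). SEC24C stood at 0.93 (FDR 0.025) in the authors' deposited table, 299 bases from the 3′ end, and was not called with folds recentred (FDR 0.067). A peak of an unnamed gene on the opposite strand overlaps it, at 0.90 (FDR 0.035), so the strand of origin is uncertain. SEC24A had 3 uncalled peaks, for which the authors' deposited table gives 0.36, 2.32 and -2.56, the last with an FDR of 0.093. The GTPase genes SAR1A and SAR1B had 1 peak each, at 0.66 and 0.58 (FDR 0.13 and 0.33 in the authors' deposited table). SEC16A, the scaffold of ER exit sites, had 3 uncalled peaks between 0.14 and 0.77. SEC23IP, a SEC23-binding protein gene, had the most significant COPII peak (log10 p -278), which stood at 0.22, and the authors' deposited table gives -1.36 (FDR 0.087) for a peak downstream.

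Of the COPI coat, 6 of 8 named genes had a peak and 1 of 9 peaks was called (11.1%, near the 8.23% of all peaks). COPG1, the γ subunit, stood at 0.64 (FDR 0.0083) in the authors' deposited table, 254 bases from the 3′ end, on a weakly enriched peak (2.93-fold). With folds recentred this call was lost (0.50, FDR 0.055), which leaves 0 called COPI peaks by that centring, where 7.78% of all peaks were called. Its peak at the start site stood at 0.40 and was not called. The 8 other COPI peaks included COPA at 0.42, COPB2 at 0.41 and 1.58, COPB1 at 0.0038 and 1.03, COPE at 0.22 and COPG2 at -0.17, with FDRs between 0.19 and 0.69 in the authors' deposited table. Folds were positive for 8 of the 9 COPI peaks (88.9%, against 55.3% of all peaks). COPI peaks lay within 1000 bases of the 5′ end in 4 of 9 cases (44.4%, against 9.6% of all peaks). These shares rest on only 9 peaks of 6 genes.

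ARF GTPases and their regulators had 15 peaks on 8 of 11 named genes, 3 of them called (20.0%, against 8.23% of all peaks). ARF3, a Golgi GTPase, had a 3′ peak at 1.56 (FDR 1.7e-06), the smallest FDR of any member in the authors' deposited table, on chromosome 12 at 48938865 to 48939710. A peak of an unnamed gene on the same strand overlaps it, at 1.62 (FDR 0.0020), and reads of these genes were not separated here. Its start-site peak stood at -0.52 with an FDR of 0.70. ARF1, the close paralogue of ARF3, had peaks at -0.15 and -0.14 (FDR 0.62 and 0.33 in the authors' deposited table), and the ARF6 peaks stood at -0.064 and 0.21. With folds recentred the second ARF1 peak was called negative (-0.28, FDR 0.036). ARFGAP1, which triggers GTP hydrolysis on ARF1, was negative at both of its peaks. They lie next to each other on chromosome 20, at 63286426 to 63288803 and 63288983 to 63289551, and the authors' deposited table gives -0.85 (FDR 0.00018) for the upstream and -0.90 (FDR 0.0033) for the downstream one. ARFGEF1 and ARFGEF3 each had 1 positive and 1 negative uncalled peak.

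**Figure D3:**
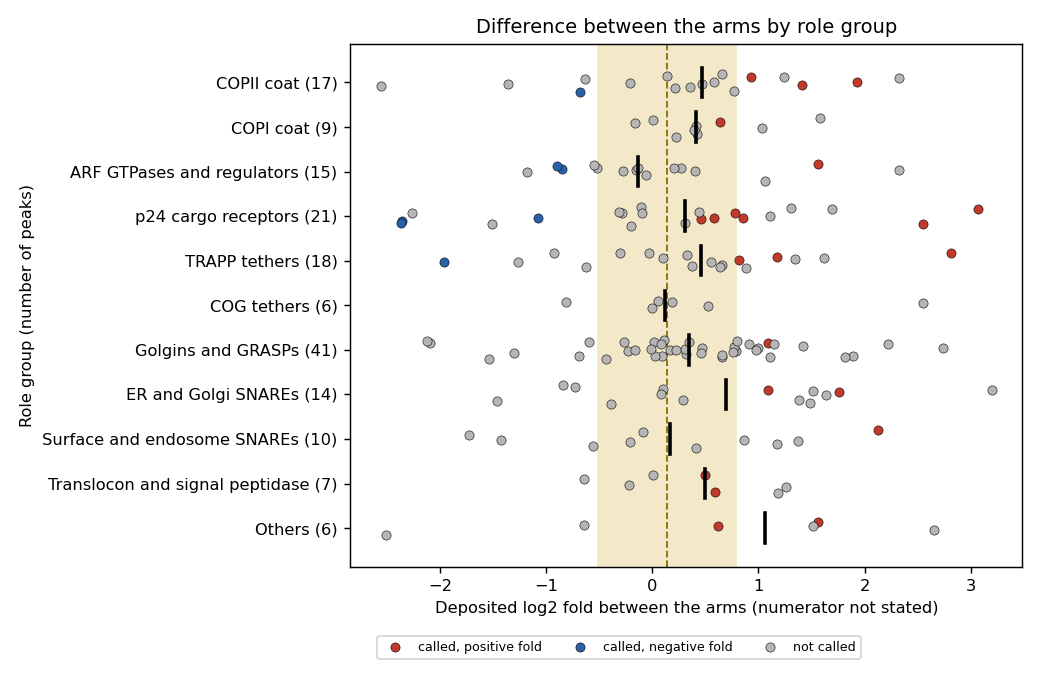
Deposited log2 fold between the arms for each of the 164 member peaks by role group, with the number of peaks in brackets. Red and blue points are called at an FDR of 0.05 with a positive or negative fold, grey points are not called, black bars are group medians, and the dashed line and band are the median (0.14) and quartiles of all 22626 peaks. The p24 group holds 9 of the 29 called peaks. None of the 6 COG peaks is called, where 8.23% of all peaks are.

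The p24 cargo receptors held the most called peaks of any role group, 9 of 21 (42.9%, against 8.23% of all peaks). A called peak was on 6 of the 10 p24 genes (60.0%, against 13.7% of all genes). Of the 9 called peaks, 3 belong to the readthrough gene TMED7-TICAM2, whose peaks overlap those of TMED7 or TICAM2. Without it 6 of 18 p24 peaks were called (33.3%), on 5 of 9 genes (55.6%). TMED10 and TMED2, which form a p24 heterodimer, both had 1 positive peak. TMED10 stood at 0.86 (FDR 0.00025) on a strong peak (19.0-fold, log10 p -231), and TMED2 at 0.45 (FDR 0.019) in the authors' deposited table. With folds recentred TMED2 was not called (0.31, FDR 0.14). TMED5 stood at 2.55 (FDR 0.019) in the authors' deposited table, on a weak peak (1.84-fold, log10 p -2.71), while its stronger peak at 0.31 was not called. TMED3 had its called peak at the 3′ end, at 3.07 (FDR 0.0040), the largest fold of a called member peak in the authors' deposited table, on chromosome 15 at 79412693 to 79413442 with 38.8-fold enrichment. The peak just upstream of it stood at -1.51 (FDR 0.62), and the far upstream peak at -0.31 had an FDR of 0.052, just past the threshold.

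TMED7 carried called peaks of both signs. Its main peak, on chromosome 5 at 115615565 to 115625696 with 33.5-fold enrichment, stood at 0.59 (FDR 0.0018) in the authors' deposited table. Its start-site peak, which covers the bases printed above, stood at -2.36 (FDR 0.0035) in the authors' deposited table, with 3.42-fold enrichment and a log10 p of only -5.48. That peak runs from 115625935 to 115632932 in 2 exon blocks, so it reaches upstream past the annotated start at 115626036. The readthrough gene lists nearly the same pair, at 0.78 (FDR 0.011) and -2.37 (FDR 0.0066) in the authors' deposited table, of which the positive one was lost with folds recentred (FDR 0.0503). A peak of an unnamed gene on the opposite strand overlaps both copies of the positive peak, at 0.68 (FDR 0.12). The remaining peak of the readthrough gene, at -1.08 (FDR 0.013), is also listed for TICAM2, at -1.02 (FDR 0.019), and so does not describe TMED7. TMED9 had the most significant peak of an uncalled p24 gene (log10 p -483), at -0.10, and its 3 peaks lay between -0.20 and 0.44. With folds recentred, 2 of the 3 TMED9 peaks were called negative, at -0.24 (FDR 0.037) and -0.34 (FDR 0.0095), as was the upstream TMED3 peak.

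TRAPP tethers had 18 peaks on 11 genes, 4 of them called (22.2%, against 8.23% of all peaks) on 3 genes. TRAPPC3, in the core that all TRAPP complexes share, stood at 0.82 (FDR 0.0031) in the authors' deposited table, at the 3′ end of the gene. TRAPPC9, a subunit of TRAPPII, had called peaks of both signs. Near its 5′ end, on chromosome 8 at 140439147 to 140457683, the log2 fold was 1.17 (FDR 0.0021), and near its 3′ end, at 139730663 to 139730933, it was -1.96 (FDR 0.0028), in the authors' deposited table. TRAPPC8, of TRAPPIII, had 1 called peak at 2.81 (FDR 0.046) and an uncalled one at -0.63 in the authors' deposited table, and that call was lost with p doubled (FDR 0.091) and with folds recentred (FDR 0.063). The start-site peak of TRAPPC6B stood at 1.62 with an FDR of 0.081, and that of TRAPPC4 at 0.10 with an FDR of 0.66. TRAPPC2B resembles TRAPPC2 closely, so its peak (0.66, FDR 0.27 in the authors' deposited table) is uncertain.

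Neither the COG complex nor the GOLGA and GOLGB1 genes taken by the name pattern had a called peak. None of the 6 COG peaks passed the authors' FDR, where 8.23% of all peaks did, and the group is too small to tell these shares apart. An unadjusted p under 0.05 was found at 2 COG peaks (33.3%), against 19.9% of all peaks. These were COG1 at 0.52 (FDR 0.13) and COG2 at 2.55 (FDR 0.12) in the authors' deposited table, both on bases shared with a gene on the opposite strand, FAM104A and AGT. Of 36 peaks on these 8 GOLGA and GOLGB1 genes 0 passed the authors' FDR, where 8.23% of all peaks did. An unadjusted p under 0.05 was found at 6 of them (16.7%), a share near that of all peaks. GOLGB1 carried 11 peaks, most of them clustered in a single stretch of the gene, with log2 folds between -2.12 and 1.82 and enrichments between 3.94-fold and 43.3-fold in the authors' deposited table. GOLGA3 (golgin-160) carried 9, between -2.10 and 1.89, and among these 2 positive and 1 negative peak had an unadjusted p under 0.05. GOLGA4 carried 6, between -0.70 and 2.74, and GOLGA2, which encodes the cis-Golgi matrix protein GM130, had 2 at 0.78 and -1.30. GOLGA5 had the most significant golgin peak (log10 p -166), at 0.79 (FDR 0.28) in the authors' deposited table. Its 4 peaks lay between -0.26 and 2.22. The stacking protein gene GORASP2 (GRASP55) had the called peak of this group, at 1.09 (FDR 0.00066) in the authors' deposited table, 480 bases from the 3′ end. The GORASP2 peak directly upstream, of similar strength (4.45-fold against 4.10-fold), stood at 0.22 with an FDR of 0.52.

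**Figure D4:**
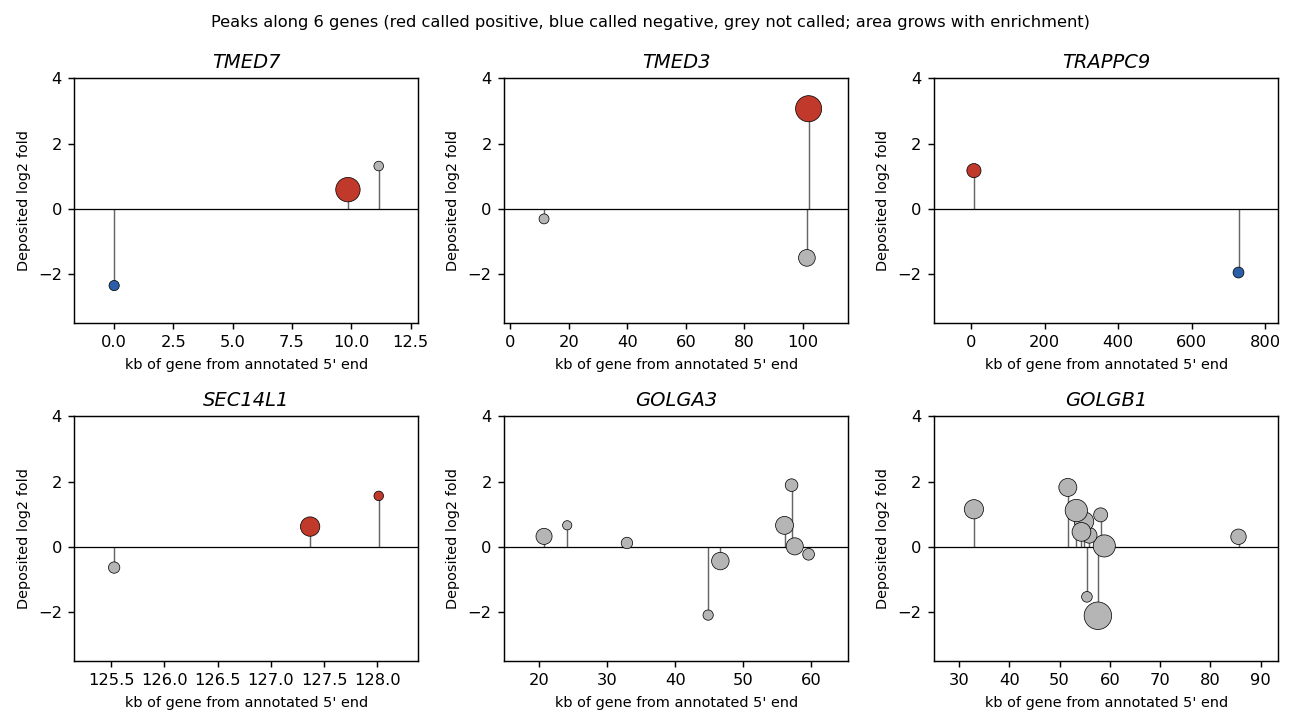
Deposited log2 fold of each peak of 6 genes against the distance of its centre from the annotated 5′ end, in kb of gene. Red and blue points are called with a positive or negative fold, grey points are not called, and the area of a point grows with its enrichment. TMED7 and TRAPPC9 hold called peaks of both signs. None of the 9 GOLGA3 or 11 GOLGB1 peaks is called, where 8.23% of all peaks are.

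The group listed as SNAREs of the ER and Golgi, which takes the SEC22 family whole, had 14 peaks on 9 of 10 named genes. Of these peaks 2 were called (14.3%, against 8.23% of all peaks). STX16, a syntaxin of the trans-Golgi network, stood at 1.76 (FDR 0.0066) in the authors' deposited table at the most 3′ of its 3 peaks, and the stronger peak just upstream stood at 0.096 (FDR 0.67). SEC22A stood at 1.09 (FDR 0.033) in the authors' deposited table, a call lost with p doubled (FDR 0.065) and with folds recentred (FDR 0.074). The start-site peak of SEC22B, an R-SNARE of ER-Golgi vesicles, stood at 1.49 with an FDR of 0.15. STX17, which also acts in autophagosome fusion, had the largest fold of any member peak, 3.20, with an FDR of 0.12 in the authors' deposited table. Surface and endosome SNAREs had 10 peaks, 1 of them called (10.0%, near the 8.23% of all peaks). The called peak was on the late endosomal VAMP7, at 2.13 (FDR 0.0031) in the authors' deposited table with 2.92-fold enrichment. STX12 had an FDR of 0.065 at 1.17 in the authors' deposited table. STX2 had the most significant peak of these SNAREs (log10 p -34.8), at -0.21 (FDR 0.65) in the authors' deposited table. Its other peak, at 1.37, was not called either (FDR 0.35).

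At the ER entrance, 2 of 7 peaks on translocon and signal peptidase genes were called (28.6%, against 8.23% of all peaks). SEC61A1, the channel-forming subunit of the translocon, stood at 0.59 (FDR 2.6e-05) on a peak of 17.4-fold and log10 p -384 in the authors' deposited table, on chromosome 3 at 128069558 to 128071144. In the authors' deposited table SEC11A, a catalytic subunit of signal peptidase, stood at 0.50 (FDR 0.0019). The main peak of SEC62 stood at -0.65 (FDR 0.15). Among the SEC14-like genes, SEC14L1 had 3 peaks near the 3′ end of the gene. From 5′ to 3′ these stood at -0.64 (FDR 0.091), 0.62 (FDR 0.022) and 1.56 (FDR 0.0089) in the authors' deposited table. With folds recentred the first was called negative (-0.78, FDR 0.033), the middle one was not called (FDR 0.097) and the last stayed called (1.42, FDR 0.022).

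**Figure D5:**
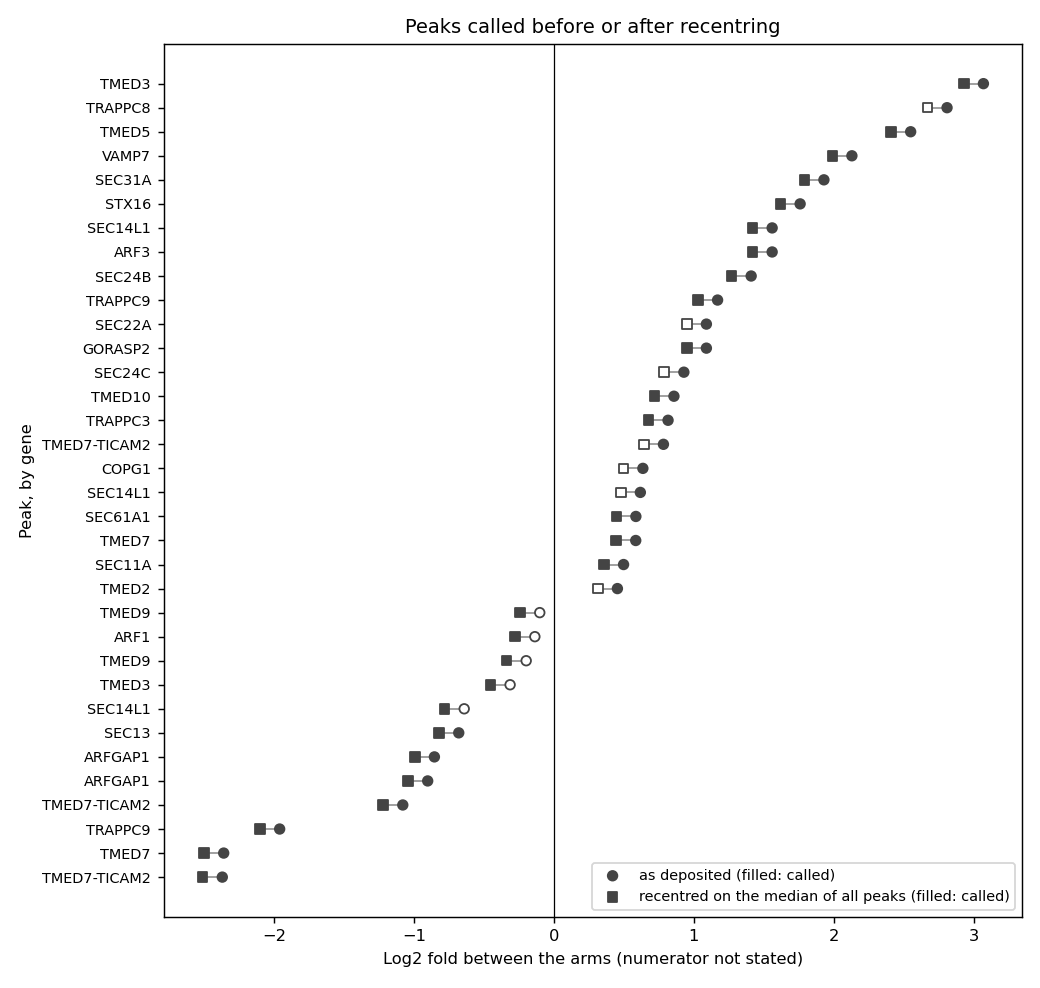
Log2 fold between the arms for the 34 member peaks called as deposited or after the median of all peaks (0.14) was subtracted, ordered by the deposited fold, with 1 line per peak. Circles are deposited folds, squares recentred ones, and filled symbols are called. Recentring leaves 7 positive peaks uncalled and adds 5 negative ones.

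Of 46 member genes with at least 2 peaks, 30 had folds of both signs (65.2%), against 59.6% of all genes with at least 2 peaks. Most of these member folds were not called. The median distance between the highest and the lowest fold of a member gene with at least 2 peaks was 1.65 on the log2 scale, against 1.33 for all such genes. With exactly 2 peaks, 18 of 30 member genes had both signs (60%), against 45.4% of all such genes. The median distances were then 1.35 and 0.91. Called peaks of both signs were on TMED7, its readthrough gene and TRAPPC9 as deposited. With folds recentred they were on TMED7, TRAPPC9, SEC14L1 and TMED3. Among the 29 called peaks, 10 lay within 1000 bases of the 3′ end (34.5%), against 24 of 134 uncalled member peaks with a position (17.9%). Over all peaks these shares were 33.7% of called and 21.2% of uncalled peaks. Within 1000 bases of the 5′ end lay 2 called member peaks (6.9%, against 13.0% of all called peaks). Both are the start-site peak of TMED7, listed under both gene names. Called member peaks shared bases with a peak of another gene in 7 of 29 cases (24.1%), against 19.2% of all called peaks. Over all 164 member peaks the share was 14.6%, against 15.7% of all peaks.

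A list of 55 other genes of the same transport steps was read in the same way, and 46 of them had 102 peaks. Of these peaks, 9 were called (8.82%, background 8.23%), 7 positive (6.86%, background 5.74%) and 2 negative (1.96%, background 2.49%). SURF4, an ER cargo receptor, stood at 0.99 (FDR 4.0e-18), a smaller FDR than any member had, and USE1, a SNARE of the ER, at 1.94 (FDR 0.00016) in the authors' deposited table. ARCN1, the δ subunit of COPI that the name pattern does not take, stood at 0.79 (FDR 0.0078), and TFG, which acts at ER exit sites, at 0.53 (FDR 0.015) in the authors' deposited table. MIA3 (TANGO1), needed for collagen export, stood at 1.11 (FDR 0.027), GOLPH3 at 0.68 (FDR 0.029) and LMAN1 (ERGIC-53) at 1.27 (FDR 0.045) in the authors' deposited table. Negative calls fell on the golgin GCC1, at -0.94 (FDR 0.044), and on LMAN2L, at -1.18 (FDR 0.046), in the authors' deposited table. With p doubled, SURF4, USE1, ARCN1 and TFG remained called, and the other 5 were lost. With folds recentred, SURF4, USE1 and ARCN1 remained called positive, and TFG (FDR 0.099), MIA3, GOLPH3 and LMAN1 were lost. GCC1 and LMAN2L remained called negative (FDR 0.018 and 0.023), and a peak of PREB, which activates SAR1, was added at -0.54 (FDR 0.021).

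ALKBH5 itself had 3 uncalled peaks, at -1.43, -0.93 and -1.25 by the authors' deposited table, and its transcript level was not analysed here. Of the 8 colorectal epithelium markers 5 had a peak, EPCAM, CDH1, KRT8, KRT18 and CDX2, while 1 of 5 fibroblast and 0 of 4 leukocyte markers had one. The 7 rows left out of the transport genes included TMED10P1, SAR1AP3 and SEC63P1, copies that resemble TMED10, SAR1A and SEC63. None of these copies was called, and whether reads were shared with the parent genes was not tested.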

How the data were processed

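The authors deposited 1 peak list that serves the whole series, naming the gene of each peak and its exon blocks. Per the file headers it gives, for each peak, a p-value as deposited and its logarithm (a score column here, because the log10 values run to minus infinity), a fold enrichment (a linear ratio deposited by the authors, read as IP over input), and the difference between the arms as a deposited log2 fold with the log10 of its p and FDR. The build GRCh38 and the tools HOMER 4.9.1 and BWA 0.7.12 appear in the submitters' processing notes, with no role or order. The peak caller is not named in the sources used here, nor whether replicate spread entered the p. The p reaches a log10 of -434 with 2 libraries per group, so calls are not read as reproducible between replicates. The deposited p never exceeds 0.773, and whether it is one-sided is not stated, so p doubled and adjusted again was an alternative.

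Members and lists were chosen with earlier results of these data known. Named genes are all members with a called peak, the strongest and most peaked member of each group, members near the threshold and called other transport genes. Where members of a group tied for the most peaks, not all of them are named. Members named beyond that, as paralogues or subunits of the same complex, were chosen after their values were seen. The readthrough gene STX16-NPEPL1, which lists a peak of STX16, was counted among the others, with the SEC14-like genes. Coordinates are 1-based, and a peak's centre is the middle of its exon bases. Distances run along the gene to its RefSeq bounds (GRCh38.p14), matched by symbol for 20688 peaks. For recentred calls the standard error followed from p, taken as one-sided, and the fold where p was under 0.3 and from a regression on peak p, enrichment and length elsewhere. Benjamini-Hochberg adjustment ran over all peaks, and its code was checked on simulated p. Recentring was tried on simulated folds, but with p doubled before adjustment and a regression on enrichment and length alone. The recentred calls given here did not double p, so they follow a looser rule than the one simulated. Python 3.11.15, numpy 2.4.6, pandas 2.3.3, scipy 1.17.1 and matplotlib 3.10.9 were used.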

Additional observations from a re-analysis of the deposited data

How the results depend on the processing

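The 29 member calls numbered between 21 and 35 under an FDR of 0.01 or 0.1, p doubled, recentred folds, weak peaks left out, low enrichment left out, each locus once, core members alone and, chosen after seeing the data, readthrough genes left out. The background moved as well. At an FDR of 0.01 12.8% of member peaks were called, against 4.95% of all peaks, and at 0.1 21.3% against 11.2%. With weak peaks left out the shares were nearer, 27 of 102 member peaks (26.5%) against 19.3%. In the other settings 16.2% to 17.4% of member peaks were called, against 6.36% to 8.37% of all peaks. With a log2 fold of at least 1 in size there were 16 (9.76%, against 4.68% of all peaks). Of these 12 were positive (7.32%, against 3.14%) and 4 negative (2.44%, against 1.53%). Negative calls numbered 11 at an FDR of 0.1 (6.71%, against 3.55% of all peaks) and 12 with folds recentred (7.32%, against 3.65%), where 7 were called as deposited. Of the other transport genes, 3 peaks were called at an FDR of 0.01 (2.94%, against 4.95% of all peaks), 3 of them positive. With p doubled 4 were called (3.92%, against 6.36%), 4 of them positive. Both shares lie below those of all peaks. The count of negative ones was 0 at the authors' FDR of 0.01 and 0 with p doubled and adjusted again, against 2 at the authors' FDR of 0.05, and 6 had an unadjusted p under 0.05. Over all peaks the negative calls at these 3 settings were 1.35%, 1.78% and 2.49%. Recentred, 3 of their called peaks were positive and 3 negative, where 7 and 2 were called as deposited. The recentred calls were 5.88% of their peaks, against 7.78% of all peaks. The share of member peaks near the 3′ end was 12.9% within 500 bases, against 12.5% of all peaks, and 33.1% within 2000 bases, against 35.8%. With 1 peak per gene the share within 1000 bases was 25%, against 28.2%. The median log2 fold of member peaks, 0.35 against 0.14 for all peaks, was 0.22 against 0.15 with weak peaks left out and 0.21 against 0 with folds recentred. It lay between 0.32 and 0.35 with 1 peak per gene, core members alone or readthrough genes left out. Of 38 single calls on members and other transport genes, 14 were lost at an FDR of 0.01, 11 with folds recentred and 7 with p doubled, and none changed sign. Why they were lost was not tested beyond the settings themselves. No paired analysis was possible because values per library were not analysed, and for the same reason no replicate was left out in turn. Depth is unknown, so no counting interval is given.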
